A study of Caenorhabditis elegans with 46 samples.

Results

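Transcript levels of 10 autophagy genes of Caenorhabditis elegans were followed through fasting. The genes were sqst-1, lgg-1, lgg-2, atg-16.2, atg-18, atg-9, atg-7, bec-1, unc-51 and epg-2, out of 17118 genes with a probe set that carried 1 gene symbol. They were chosen by name, with earlier results of these data known. A gene with several such probe sets was represented by the brightest, and 4 of the genes (sqst-1, lgg-2, atg-18 and bec-1) had a second one. All 10 passed into the analysis, since no filter on low values was applied.

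RNA from whole worms was measured on 46 Affymetrix arrays in 2 sets. The time course held 22 arrays of wild-type N2 worms, 2 per group from independent experiments: fed at 0, 24 and 48 h, and fasted for 3, 6, 9, 12, 18, 24, 36 and 48 h, counted from day 2 of adulthood. The mutant set held 24 arrays of adults at day 4, 3 per group from independent experiments. It compared fed with fasted worms in N2 and in mutants of kgb-1, jun-1 or daf-16. kgb-1 encodes a JNK family kinase, daf-16 encodes the FOXO factor of insulin signalling, and jun-1 encodes a subunit of AP-1. The labels give neither the lesions nor how long the mutant set fasted. The median intensity of an array lay between 60.1 and 84.0 for the time course and between 60.2 and 85.4 for the mutant set, with correlations within groups of at least 0.986 and 0.930. The number of arrays limits the precision of each comparison. In RNA from whole worms, fewer cells of a type and less RNA per cell cannot be told apart.

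In autophagy, a membrane grows around cytoplasm or selected cargo, closes into an autophagosome and fuses with the lysosome, where the content is degraded. The UNC-51 kinase starts the process. A lipid kinase complex with BEC-1 marks the site, ATG-9 and ATG-18 act in membrane supply, and a conjugation system with ATG-7 and ATG-16.2 attaches the ubiquitin-like proteins LGG-1 and LGG-2 to the membrane. Receptors such as SQST-1 and adaptors such as EPG-2 bring in cargo and are themselves degraded, so a transcript level is not a measure of the flow through the pathway.

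Of the 10 genes, the cargo genes sqst-1 and epg-2 had the largest changes in N2 worms fasted for 9 h or longer in the time course. sqst-1 encodes the worm counterpart of the receptor p62, which binds ubiquitinated proteins. Fed worms had deposited intensities of 749 and 999 at 0 h, 1196 and 1319 a day later (24 h) and 1215 and 1531 another day later (48 h). After 3 h of fasting the arrays read 1237 and 1408, after 6 h 1422 and 1868, after 9 h 2323 and 3034, and after 12 h 3017 and 2962. Longer fasts gave 3546 and 4840 (18 h), 4619 and 3907 (24 h), 4727 and 5027 (36 h) and 4870 and 4738 (48 h). From 9 h of fasting on, each fasted array lay above all 6 fed arrays. In the order of group means, the 4 groups fasted for 18 h or longer overlapped with their neighbours and stood apart from 12 h, and fed worms at 24 and 48 h overlapped with worms fasted for 3 and 6 h.

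Relative to fed worms of equal age, sqst-1 was higher by 1.79 ± 0.18 (log2, SE) at 24 h and by 1.80 ± 0.18 at 48 h, with limma adjusted p of 3.23e-06 and 2.66e-06. All changes here are on the scale of log2(intensity + 16) after quantile scaling, and a gene was called at an adjusted p under 0.05 over all 22548 probe sets. The comparisons at 3, 6, 9, 12, 18 and 36 h were made against the fed worms at 0 h, so they share 2 control arrays and do not separate fasting from age. There sqst-1 differed by 0.60 at 3 h, which was not called (adjusted p 0.189), and rose by 0.95 at 6 h, 1.68 at 9 h, 1.82 at 12 h, 2.25 at 18 h and 2.51 at 36 h. The call at 6 h (adjusted p 0.00681) was lost without replicate 1 of the fed worms at 0 h (0.74, adjusted p 0.124) and without replicate 2 at 6 h (0.75, adjusted p 0.148). The brighter sqst-1 probe set has a suffix that marks probes which may match other transcripts. The second sqst-1 probe set, without that suffix, was called at the same times, with 1.98 at 24 h and 1.76 at 48 h.

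epg-2 encodes a coiled-coil adaptor that, in embryos, links P granule proteins to LGG-1. Fed worms had intensities of 216 and 289 (0 h), 497 and 434 (24 h) and 467 and 552 (48 h). After 3 h of fasting epg-2 read 315 and 462, after 6 h 366 and 539, after 9 h 979 and 1011, and after 12 h 963 and 916. It then reached 1845 and 2053 (18 h), 2021 and 1372 (24 h), 1993 and 2084 (36 h) and 1717 and 1458 (48 h). The fasted arrays lay above all fed arrays from 9 h on, with a step between 6 and 9 h and another between 12 and 18 h. epg-2 rose by 1.85 ± 0.21 (SE) at 24 h and 1.59 ± 0.21 at 48 h relative to fed age-matched worms (limma adjusted p 9.81e-06 and 3.14e-05). Against fed worms at 0 h it rose by 1.84 at 9 h, 1.75 at 12 h, 2.74 at 18 h and 2.82 at 36 h.

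**Figure D1:**
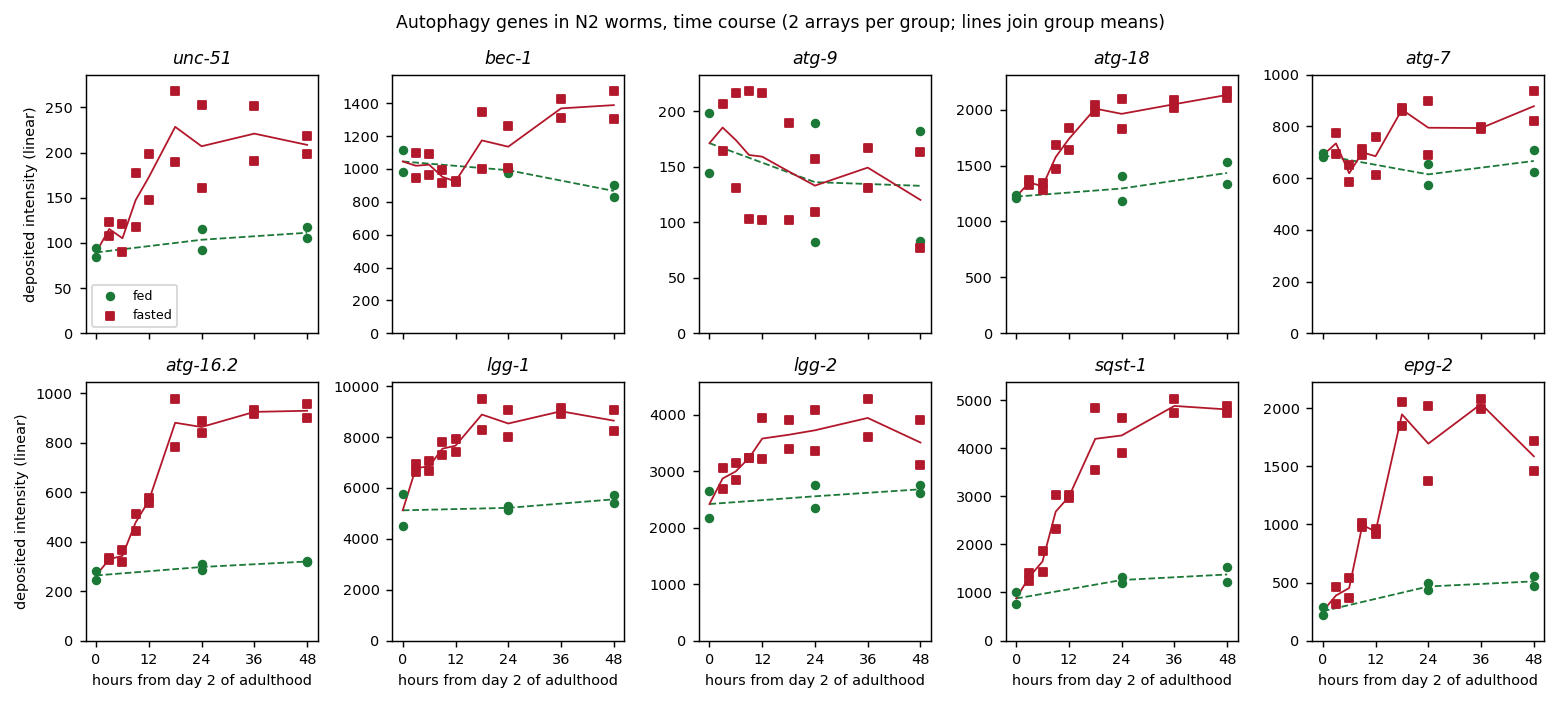
Deposited intensity (linear axis from 0, a scale of its own in each panel) of the 10 genes against hours from day 2 of adulthood, with green circles for fed and red squares for fasted N2 arrays, 2 per group, and lines joining group means. sqst-1, epg-2, atg-16.2 and lgg-2 separate from the fed arrays by 9 h and lgg-1 by 3 h, and in every atg-9 group replicate 2 is the higher array.

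The conjugation genes and their substrates had smaller changes. atg-16.2, whose product directs the attachment of LGG proteins to the membrane, had intensities of 318 and 322 in fed worms at 48 h and 902 and 958 in fasted worms. At 0 h it had 244 and 283 in fed worms, and at 18 h 784 and 978 in fasted worms. It rose from 9 h (0.73 ± 0.14) through 12 h (0.97) to 1.59 at 18 h and 1.70 at 36 h, and by 1.51 at 24 h and 1.49 at 48 h against the same age (limma adjusted p 1.85e-06 and 1.81e-06). Only the call at 9 h depended on 1 array, being lost without replicate 2 of the worms fasted for 9 h (0.64, adjusted p 0.0524).

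lgg-1, the Atg8 family gene related to GABARAP, had 5394 and 5711 in fed worms and 9049 and 8244 in fasted worms at 48 h. In worms fasted for 3 h it already had 6630 and 6943, against 4496 and 5745 in fed worms at 0 h. The arrays of these groups did not overlap, and the differences were modest. lgg-1 differed by 0.42 ± 0.10 at 3 h (adjusted p 0.0552) and rose by 0.46 at 6 h, 0.58 at 9 h, 0.63 at 12 h, 0.83 at 18 h and 0.85 at 36 h, and by 0.80 and 0.63 against the same age at 24 and 48 h (adjusted p 2.51e-05 and 0.000185). Without replicate 2 of the fed worms at 0 h, lgg-1 was called at 3 h (0.57, adjusted p 0.0152). Its call at 6 h was lost without replicate 1 of those worms (0.31, adjusted p 0.306) and without replicate 1 or 2 of the fasted worms (0.46 and 0.45), and on the values as deposited (0.43, adjusted p 0.0655).

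lgg-2, the Atg8 family gene related to LC3, had 2609 and 2744 in fed worms and 3099 and 3909 in fasted worms at 48 h. It rose by 0.48 ± 0.13 at 9 h, 0.56 at 12 h, 0.54 at 18 h, 0.70 at 36 h and 0.57 at 24 h, whereas the 0.34 at 48 h missed the call (adjusted p 0.0613). Its probe sets disagreed there, since the second one rose by 0.83 ± 0.11 at 48 h (adjusted p 2.80e-05). The brighter probe set was called at 48 h without replicate 1 of the fasted worms (0.47, adjusted p 0.0402). Without replicate 1 of the fed worms at 0 h, its calls at 9, 12 and 18 h were lost (0.35, 0.42 and 0.40), and single fasted arrays also decided them: either array at 9 h, replicate 1 at 12 h and replicate 2 at 18 h. The call at 9 h was also lost on the values as deposited (0.42, adjusted p 0.106).

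atg-7 encodes the activating enzyme of the conjugation system. It had 709 and 624 in fed worms and 935 and 821 in fasted worms at 48 h, and rose by 0.42 ± 0.11 there, 0.45 at 24 h and 0.38 at 18 h. These changes were small, and each of the 3 calls depended on the scaling. On the values as deposited the adjusted p was 0.104 at 18 h, 0.0799 at 24 h and 0.0529 at 48 h. The calls also depended on single arrays: replicate 1 of the fed worms at 0 h or replicate 2 of the fasted worms at 18 h, replicate 1 of either group at 24 h, and replicate 2 of the fed or replicate 1 of the fasted worms at 48 h, with 0.34 to 0.39 left without them.

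Of the 4 genes of initiation and membrane supply, 3 were called higher in at least 1 comparison of fasted worms. atg-18, a WIPI protein that binds the lipid product of the BEC-1 complex, had 1335 and 1533 in fed worms and 2163 and 2101 in fasted worms at 48 h. It rose by 0.64 ± 0.10 at 24 h and 0.53 ± 0.10 at 48 h (adjusted p 0.000195 and 0.000869), and by 0.42 at 9 h, 0.55 at 12 h, 0.70 at 18 h and 0.74 at 36 h. The second atg-18 probe set was not called at any time, with 0.42 at 24 h and 0.38 at 48 h. On the values as deposited the call at 9 h was lost (0.36, adjusted p 0.0731), as it was without replicate 1 or 2 of the fed worms at 0 h (0.44 and 0.41) or without replicate 2 at 9 h (0.35). With the mean of both probe sets, atg-18 was not called at 9 h (0.34, adjusted p 0.126) or at 12 h (0.34, adjusted p 0.0930).

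unc-51, the counterpart of the kinase ULK1, had low intensities of 94.9 and 84.0 in fed worms at 0 h and 268 and 189 at 18 h of fasting. At 24 h fed worms had 115 and 91.7 and fasted worms 253 and 161. The fasted arrays lay above the fed arrays at both times but spread widely. unc-51 rose by 0.84 ± 0.24 at 18 h, 0.84 at 36 h and 0.67 at 24 h (adjusted p 0.0102, 0.00947 and 0.0383), and differed by 0.56 at 48 h without a call (adjusted p 0.0902). On the values as deposited it was also called at 12 h (0.83, adjusted p 0.0222) and at 48 h (0.82, adjusted p 0.0132). Each of its calls was lost without replicate 2 of the fed worms or without replicate 1 of the fasted worms, with 0.46 to 0.74 left.

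bec-1, the counterpart of Beclin 1, was late. Its intensity was 978 and 1112 in fed worms at 0 h and 919 and 928 after 12 h of fasting, and at 48 h it was 902 and 830 in fed and 1471 and 1305 in fasted worms. It rose by 0.68 ± 0.15 at 48 h (adjusted p 0.00223) and by 0.43 at 36 h (adjusted p 0.0298). The call at 36 h was lost without replicate 1 of the fed worms (0.33), without either fasted array (0.47 and 0.38) and on the values as deposited (0.38, adjusted p 0.0560). The second bec-1 probe set was called at 18 h (0.69), 36 h (0.66) and 48 h (0.43), and in fed worms at 48 h against 0 h it gave 0.20 where the brightest gave -0.27, neither called.

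atg-9, a membrane-spanning protein carried in vesicles, was not called in any comparison fitted without the replicate number. It had 83.1 and 183 in fed worms and 76.6 and 164 in fasted worms at 48 h. Replicate 2 was the higher array in 11 of 11 time course groups and the highest in 8 of 8 mutant set groups, a shift that the SE of 0.46 includes. At 36 h the intensities were 131 and 167, against 144 and 198 in fed worms at 0 h. Against these fed worms the change was -0.58 at 18 h and -0.51 at 36 h (limma adjusted p 0.351 and 0.408), and at 36 h the scaled arrays did not overlap. With the replicate number as a block, atg-9 was called lower at both times (limma adjusted p 0.00987 and 0.0208). Relative to the same age the change was -0.37 ± 0.46 at 48 h and -0.16 ± 0.46 at 24 h (adjusted p 0.596 and 0.828), and the latter changed sign without scaling (0.05). At 48 h the 95% interval ran from -1.34 to 0.59.

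Counted together, none of the 10 genes was called lower in the time course without the replicate number in the fit, where 0.674% of all probe sets were called lower at 3 h, 1.10% at 6 h, 3.25% at 9 h and 6.17% at 12 h, then 18.8% (18 h), 20.5% (36 h), 15.7% (24 h) and 14.1% (48 h). The number called higher was 0 at 3 h, where 0.443% of all probe sets were called higher, 2 at 6 h (1.10% of all), 6 at 9 h (6.40%) and 6 at 12 h (9.96%). It was 8 at 18 h (17.8%), 8 at 36 h (19.8%), 8 at 24 h against the same age (16.5%) and 7 at 48 h against the same age (16%). Among the probe sets with a mean level above the median of all, 22.7% were called higher at 48 h and 22.5% at 24 h. The median change of the 10 genes was 0.66 at 24 h and 0.59 at 48 h, beside -0.03 and -0.02 over all genes. At 3 h, where none of the 10 genes was called by limma, 3 had an unadjusted p under 0.05, beside 1414 of all 22548 probe sets. At 6 h no call was left without replicate 1 of the fed worms at 0 h or without replicate 2 of the fasted worms and 1 was left without replicate 1 of the fasted worms, and at 9 h 3 were left without replicate 2 of the fasted worms.

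**Figure D2:**
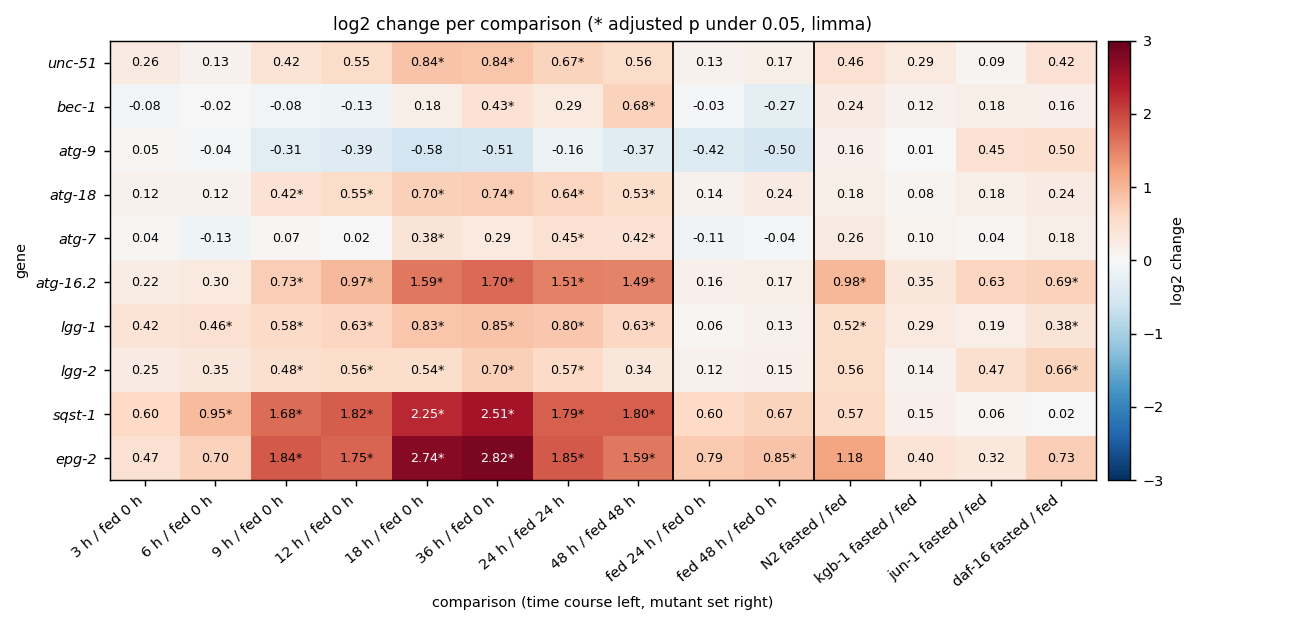
Log2 change of each gene (rows) in each fasting comparison, in both comparisons of fed worms and in the 4 fasting comparisons of the mutant set (columns), coloured from -3 (blue) to 3 (red), with an asterisk where the limma adjusted p was under 0.05. The highest values are those of epg-2 and sqst-1 at 18 and 36 h, and no blue cell carries an asterisk.

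In fed worms that only aged, 0 of the 10 genes were called at 24 h against 0 h (0.279% of all probe sets called higher). There 2 had an unadjusted limma p under 0.05, beside 1235 of all 22548 probe sets. At 48 h 1 of the 10 genes was called (1.17%). That gene was epg-2, with 0.85 ± 0.21 (adjusted p 0.0451), and its call was lost without any one of the 4 arrays, with 0.66 to 1.04 left. sqst-1 differed by 0.60 at 24 h and 0.67 at 48 h without a call (adjusted p 0.283 and 0.0763). These values bear on the comparisons at 18 and 36 h, which include age. They also bear on those at 3 to 12 h, which use the same 2 fed arrays at 0 h. Against these arrays sqst-1 differed by 0.60 at 3 h and 0.95 at 6 h of fasting, beside the 0.60 and 0.67 of fed worms.

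epg-2 had the profile closest to sqst-1 among the other 9 genes. Likeness was measured as the root mean square difference between the 8 fasting changes of the time course, which for epg-2 was 0.247, for atg-16.2 0.657 and for the rest 1.118 (lgg-1) to 2.11 (atg-9). Among 8482 other genes with a level above the median, the smallest differences were those of F34H10.3 (0.106), F13C5.2 (0.108), siah-1 (0.137), F18C5.10 (0.146) and sdz-25 (0.168), and the median was 1.84. siah-1 encodes a ubiquitin ligase. At 48 h these 5 genes changed by 1.85, 1.91, 2.02, 1.65 and 1.64. In the mutant set, which had no part in the choice, fasting changed them in N2 worms by 1.26, 1.24, 1.26, 1.23 and 1.17, beside 0.57 for sqst-1. Of the 5, F34H10.3, siah-1 and sdz-25 were called there (limma adjusted p 0.00495, 0.00543 and 0.0484).

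Other genes of the core machinery moved in both directions. Of 18 that were measured, 6 rose and 2 fell at 48 h, beside 3617 and 3178 of all 22548 probe sets. The median change of the 18 genes was 0.20. atg-2, which transfers lipids into the growing membrane, rose by 1.34 ± 0.13, atg-16.1, the second Atg16 gene, by 1.08 ± 0.14, epg-9, the counterpart of ATG101 in the UNC-51 complex, by 1.04 ± 0.13, and vps-34, the lipid kinase that works with BEC-1, by 0.88 ± 0.15 (limma adjusted p 2.66e-06, 2.40e-05, 2.64e-05 and 0.000255). epg-6, a second WIPI gene, rose by 0.54. lgg-3, the counterpart of ATG12, fell by 0.48 (adjusted p 0.00756). The 2 remaining calls, named after their values were seen, were epg-7, which rose by 0.52, and atg-5, which fell by 0.46 and whose product is joined to LGG-3 in the conjugation system. The call of atg-5 was lost on the values as deposited (adjusted p 0.0681).

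Of 5 genes of selective autophagy, 3 rose at 48 h, with a median of 0.65. They were dct-1, a mitophagy receptor related to BNIP3 (1.75 ± 0.17, adjusted p 2.36e-06), sepa-1, the receptor that delivers P granule proteins (0.73 ± 0.20, adjusted p 0.0108) and allo-1, a receptor for paternal organelles in the embryo (0.65 ± 0.13, adjusted p 0.00127). Subunits of the V-ATPase, the proton pump that acidifies the lysosome, did not share a direction at 48 h. Of 19 measured, 3 rose and 4 fell there, with a median of -0.10. The background for both lists at 48 h was 3617 probe sets called higher and 3178 lower, of all 22548. From 6 to 36 h more subunits fell than rose, and their median was below 0 at each time. None rose at 6, 9 and 12 h, where 3, 4 and 4 fell, beside 248, 733 and 1391 of all probe sets. At 18 h 1 rose and 8 fell, at 24 h 1 rose and 6 fell, and at 36 h 3 rose and 9 fell. Of all probe sets, 4234, 3545 and 4612 fell at these times. unc-32 rose by 0.98, vha-15 by 0.66 and vha-20 by 0.52 at 48 h, and vha-7, vha-18 and vha-8 changed by -0.57, -0.41 and -0.43.

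**Figure D3:**
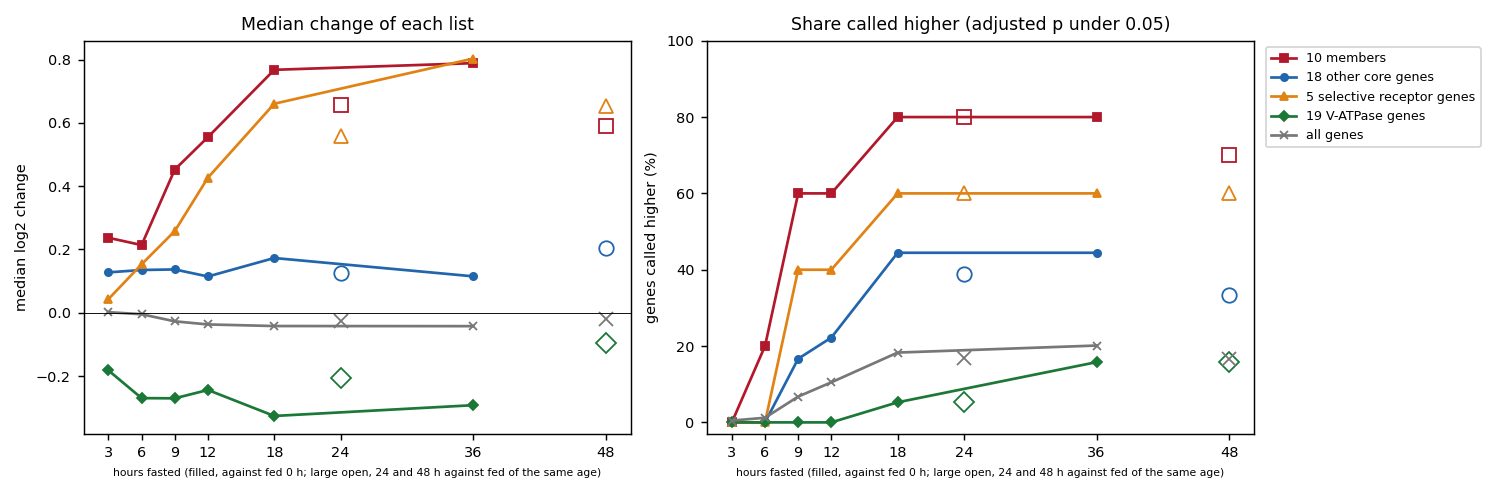
Median log2 change (left) and percent of genes called higher at an adjusted p under 0.05 (right) for the 10 genes, 18 other core genes, 5 selective receptor genes, 19 V-ATPase genes and all genes, against hours fasted. Filled symbols joined by lines are comparisons with fed worms at 0 h and large open symbols those with fed worms of the same age. The 10 genes reach 8 of 10 called at 18 and 36 h, and the V-ATPase median stays below 0.

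Markers of tissues moved with fasting in the same arrays. The background at 48 h was 3617 probe sets called higher and 3178 lower, of all 22548. At 48 h, 7 of 15 germline genes were called lower and none higher, with a median of -0.85, and their summed intensity was 33145 to 36215 in fed and 20855 to 23300 in fasted worms. Of 8 hypodermis genes 6 were lower, with sums of 10526 to 10708 and 2784 to 4674. Of 10 intestine genes 2 were higher and 4 lower (sums of 20068 to 22692 and 13128 to 14072), of 8 body muscle genes 2 and 2 (2458 to 2676 and 2595 to 2604), of 10 neuron genes 3 and 0 (3224 to 3647 and 4717 to 5212) and of 6 pharynx genes 3 and 1 (460 to 469 and 576 to 585). No marker was at 0, as the values start at 16. The lowest group means in the time course included 21.95 for the neuron gene unc-31 and 42.5 for the muscle gene myo-3. The part of tissue content in the changes of the autophagy genes was not tested.

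In the mutant set the labels were checked first against the mutated genes. The brightest jun-1 probe set had at most 27.3 in the 6 arrays of jun-1 worms, near the lowest deposited value, and at least 444 in the other arrays, with a difference of -4.33 ± 0.21 in fed jun-1 against fed N2 worms (limma adjusted p 6.88e-11). A second jun-1 probe set was not lower in this way, with 151, 190 and 104 in fed jun-1 and 154, 232 and 228 in fed N2 worms. The kgb-1 probe set read 157, 222 and 181 when kgb-1 worms were fed, against 153, 185 and 183 for fed N2 worms, so it did not check the label. The kind of lesion, and whether the probe set lies in it, was not given in the sources used here. The brightest daf-16 probe set had 356, 524 and 359 in fed daf-16 worms and 589, 518 and 571 in fed N2 worms, and was not called (-0.43, adjusted p 0.640), while another of its 4 probe sets was called lower (-0.44, adjusted p 0.0278). Fasted daf-16 worms had the lowest correlation between arrays.

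Fasting in the N2 worms of the mutant set gave 10 of 10 genes a higher mean, as it did 48.5% of all probe sets, although the second atg-18 probe set gave -0.01 where the brightest gave 0.18. Of the 10, 2 were called higher (3.40% of all called higher). lgg-1 had 4911, 4885 and 5076 in fed and 7014, 6558 and 7187 in fasted worms, and rose by 0.52 ± 0.10 (limma adjusted p 0.00143). atg-16.2 had 382, 239 and 342 in fed and 746, 517 and 736 in fasted worms, and rose by 0.98 ± 0.20 (adjusted p 0.00296). The fed and fasted arrays did not overlap for either gene. With the replicate number as a block, 5 were called (7.41%): lgg-2 (0.56, adjusted p 0.00305), epg-2 (1.18, adjusted p 0.000204) and sqst-1 (0.57, adjusted p 0.0367) were added to them.

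sqst-1 had 1714, 1825 and 1978 in fed and 3021, 2681 and 2897 in fasted N2 worms. The groups did not overlap, and sqst-1 was higher in fasted worms in 3 of 3 replicates, yet the 0.57 ± 0.21 missed the call without the block (adjusted p 0.127). The fed worms of this set lay above the fed worms of the time course in deposited intensity, and as the sets were scaled separately this was not tested. epg-2 had 648, 294 and 316 in fed and 1528, 613 and 848 in fasted N2 worms (1.18 ± 0.44, adjusted p 0.145 without the block). Replicate 1 of epg-2 was the highest array in 8 of 8 groups.

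In kgb-1 worms 0 of the 10 genes were called (0.213%), and 1 had an unadjusted limma p under 0.05, beside 1258 of all 22548 probe sets. sqst-1 had 2162, 2013 and 1807 in fed and 3137, 1899 and 1781 in fasted kgb-1 worms. The groups overlapped, and after scaling 1 of 3 replicates was higher when fasted (0.15 ± 0.21, adjusted p 1.0). The second sqst-1 probe set read 696, 692 and 654 in fed and 1180, 670 and 834 in fasted worms, a difference of 0.38 ± 0.21 that was not called either. atg-16.2 went from 583, 473 and 478 when fed to 742, 557 and 645 when fasted. The groups overlapped as deposited but not after scaling, with a difference of 0.35 ± 0.20 (adjusted p 1.0).

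In jun-1 worms 0 were called (0.820%), with 2 at an unadjusted limma p under 0.05, beside 2865 of all 22548 probe sets. With the block, lgg-2 (0.47, adjusted p 0.0165) and atg-16.2 (0.63, adjusted p 0.0153) were called, beside 2.97% of all probe sets. sqst-1 had 1864, 1964 and 1988 in fed and 2898, 1547 and 2070 in fasted jun-1 worms. Replicate 1 was higher when fasted and replicate 2 lower, and replicate 3 was higher as deposited but lower after scaling (0.06 ± 0.21 in all, adjusted p 0.951).

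In daf-16 worms 3 were called (2.25%). lgg-1 rose by 0.38 ± 0.10, lgg-2 by 0.66 ± 0.19 and atg-16.2 by 0.69 ± 0.20 (limma adjusted p 0.0205, 0.0456 and 0.0443). lgg-2 had 2755, 1639 and 2078 in fed and 4099, 3152 and 3426 in fasted daf-16 worms, which did not overlap. None of the 3 was called without fed replicate 2, fed replicate 3 or fasted replicate 1, and 1 was called without fasted replicate 3. The call of atg-16.2 was also lost on the values as deposited (0.64, adjusted p 0.178), and that of lgg-2 without an intensity trend (adjusted p 0.0556). With the block epg-2 was called too (0.73, adjusted p 0.0159), beside 4.91% of all probe sets. sqst-1 had 1846, 2109 and 2215 in fed and 2464, 2097 and 2052 in fasted daf-16 worms, an overlap with a difference of 0.02 ± 0.21 (adjusted p 0.985), and its second probe set gave -0.10.

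**Figure D4:**
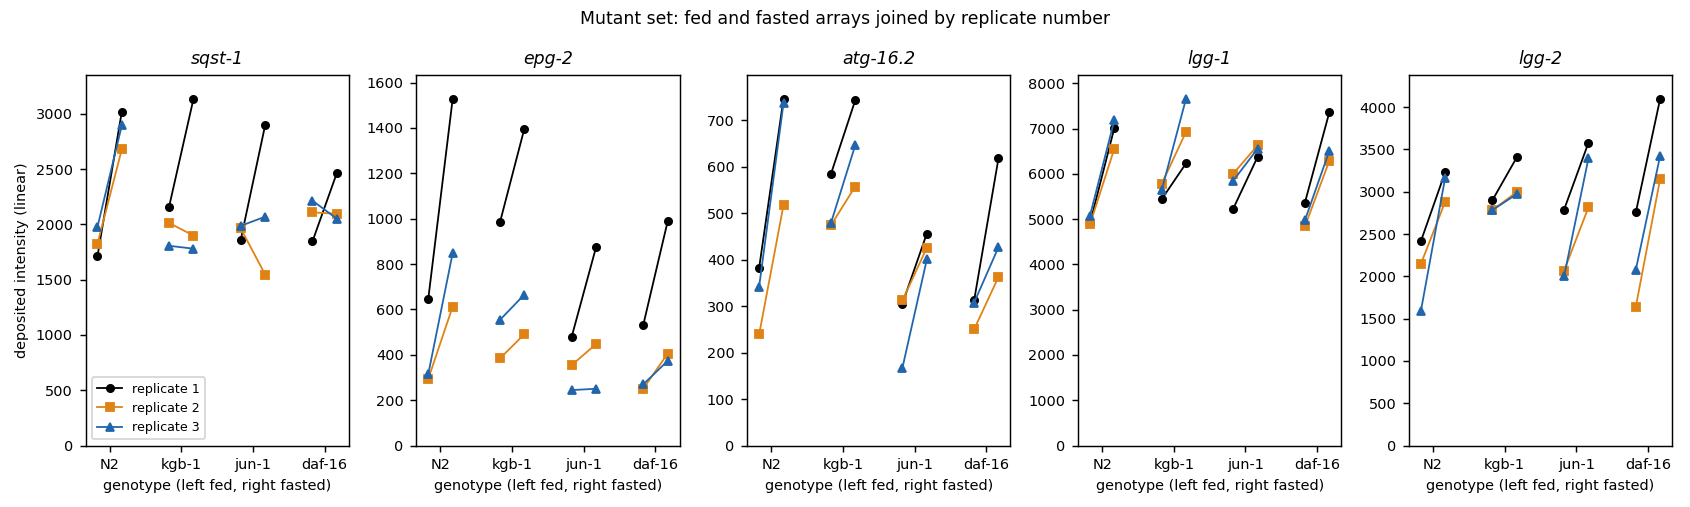
Deposited intensity (linear axis from 0) of sqst-1, epg-2, atg-16.2, lgg-1 and lgg-2 in the mutant set, with fed (left) and fasted (right) arrays of each genotype joined by replicate number. For sqst-1 all 3 lines rise in N2 worms. In each mutant replicate 1 rises and replicate 2 falls, and replicate 3 falls in kgb-1 and daf-16 but rises slightly in jun-1 worms.

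Whether the fasting response of a mutant differed from that of N2 was tested as an interaction. The 3 interactions share the 6 N2 arrays. No gene was called in any of them, where 0.0310% of all probe sets were called in either direction for kgb-1, 0.177% for jun-1 and 0.111% for daf-16. None was called with the block either (0.0976%, 0.466% and 0.248% of all). At an unadjusted limma p under 0.05 there was 1 for kgb-1 (atg-16.2), 1 for jun-1 (lgg-1) and 0 for daf-16. Of all 22548 probe sets, 618, 1005 and 919 had such a p. For atg-16.2 the difference in kgb-1 was -0.64, with a 95% interval from -1.21 to -0.06 (adjusted p 1.0), and for lgg-1 that in jun-1 was -0.33, with an interval from -0.61 to -0.05 (adjusted p 0.943). For sqst-1 the difference was -0.43 in kgb-1 (interval -1.04 to 0.18), -0.52 in jun-1 (-1.13 to 0.09) and -0.55 in daf-16 worms (-1.16 to 0.06), and its second probe set gave -0.20, -0.42 and -0.68. These intervals hold both 0 and the whole N2 response of 0.57, taken as a loss. Of the 10 genes, the response was below that of N2 in 10 for kgb-1, 9 for jun-1 and 7 for daf-16, beside 48.1%, 45.4% and 48.4% of all probe sets. The medians were -0.20, -0.28 and -0.08.

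When fed, kgb-1 worms had 0 of the 10 genes called (1.90% of all in either direction), where 3 had an unadjusted limma p under 0.05. Fed jun-1 worms had 0 (1.36%), with 1 such gene, and fed daf-16 worms 0 (0.435%), with 0 such genes. Of all 22548 probe sets, 2427 had such a p in fed kgb-1, 2081 in fed jun-1 and 1300 in fed daf-16 worms. All 10 had a higher mean in fed kgb-1 than in fed N2 worms, beside 55.9% of all probe sets. With the block, lgg-2 (0.44, adjusted p 0.0287) and atg-16.2 (0.56, adjusted p 0.0376) were called higher there, beside 2.16% of all called higher. The 3 comparisons share the N2 fed arrays. The fed arrays of N2 and kgb-1 worms also enter the kgb-1 interaction, with the opposite sign. The count of 10 genes here and that in the interaction are therefore not separate results.

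Of the 5 selective autophagy genes, dct-1 was called in the mutant set without the block. It rose by 1.46 ± 0.22 in N2, 0.94 ± 0.22 in jun-1 and 1.74 ± 0.22 in daf-16 worms (limma adjusted p 0.000175, 0.0160 and 1.86e-05), and differed by 0.68 ± 0.22 in kgb-1 worms without a call (adjusted p 0.259). With the block, allo-1 was also called in N2 (0.52), and sepa-1 (0.66) and pdr-1, the Parkin counterpart (0.52, named after its value was seen), in jun-1 worms. None of the 18 other core genes was called by limma without the block in any of the 4 genotypes, while 5 had an unadjusted p under 0.05 in N2, 0 in kgb-1, 3 in jun-1 and 3 in daf-16 worms. Of all 22548 probe sets, 3617, 1258, 2865 and 3158 had such a p there. With the block, 4 core genes were called higher in N2 worms (atg-2, epg-6, atg-16.1 and vps-34), 2 in jun-1 (epg-9 and epg-6), 2 in daf-16 (also epg-9 and epg-6) and 0 in kgb-1 worms. Of all 22548 probe sets, 1671 were called higher with the block in N2, 669 in jun-1, 1107 in daf-16 and 123 in kgb-1 worms.

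Some tissue markers moved in the mutant set as well. Of all 22548 probe sets, 489 were called lower in N2, 178 in kgb-1, 481 in jun-1 and 547 in daf-16 worms, where 508 were higher. Of the 10 intestine genes 3 were called lower in N2, 2 in kgb-1, 5 in jun-1 and 3 in daf-16 worms, where 1 was higher. Their sums were 16328 to 19350 in fed and 6741 to 8536 in fasted N2 worms, 12498 to 18229 and 6002 to 7959 in kgb-1, 11894 to 13070 and 4111 to 5018 in jun-1, and 14150 to 17215 and 8370 to 12865 in daf-16 worms. Body muscle genes had medians of -0.81 in N2, -0.74 in kgb-1, -1.40 in jun-1 and -1.40 in daf-16 worms, with 1, 0, 2 and 2 of 8 called lower. Their sums were 3431 to 7447 in fed and 2012 to 3926 in fasted N2 worms, 2222 to 3324 and 1302 to 1902 in kgb-1, 3612 to 4897 and 1533 to 1710 in jun-1, and 2841 to 15125 and 1169 to 5856 in daf-16 worms. Hypodermis genes had medians of -0.88, -0.85, -1.34 and -0.74 with 0 of 8 called by limma, where 2, 0, 6 and 3 had an unadjusted p under 0.05. Of all 22548 probe sets, 3617, 1258, 2865 and 3158 had such a p. Blocking on the replicate number gave 4, 0, 5 and 2 hypodermis genes called lower, beside 1046, 321, 952 and 973 of all probe sets. Without the block, 0 of 15 germline genes were called in any genotype, with medians of -0.30, -0.11, -0.01 and -0.06. Their sums overlapped between fed and fasted worms in each, and 2 were called lower in N2 with the block. Of 10 neuron genes 2 were called higher in N2 and none in the mutants, with medians of 0.13, 0.23, 0.08 and 0.08. Of 6 pharynx genes none was called, with medians of -0.02, 0.25, 0.003 and 0.24. In fed kgb-1 against fed N2 worms the body muscle median was -0.95, with 0 of 8 called by limma. There 3 had an unadjusted p under 0.05 and 3 were called lower with the block, beside 2427 and 854 of all 22548 probe sets. The part of these markers in the values of the autophagy genes was not tested.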

How the data were processed

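Each array's deposited column holds a linear intensity per probe set, which, per the submitters' processing notes, the authors computed with PLIER. The version and normalization are not given in the sources used here, and the smallest value was 16.0003. Per the labels' protocols, cRNA was made from 100 ng of total RNA with 2 rounds of amplification.

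Of 22625 probe sets, 77 controls were left out. Values were taken as log2(intensity + 16), quantile scaled within each set and fitted with limma 3.58.1 in R 4.3.3 (lmFit, eBayes with a trend, 1 coefficient per group). Tests were two-sided with Benjamini-Hochberg adjustment over 22548 probe sets. They were run on simulated data with independent noise for each array. That run cannot show the error rate where same-numbered arrays correlate. Printed intensities are as deposited. Gene symbols came from the platform annotation (20766 probe sets with 1 symbol, 887 with several, 895 not listed). The 20 comparisons, alternatives and gene lists are those of the text. Genes named were the 10 genes, up to 6 called genes per list at 48 h by adjusted p, and the 5 genes most like sqst-1. Members and lists were chosen with earlier results of these data known.

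In the mutant set, deviations of same-numbered arrays correlated at 0.172 to 0.778. There 24 of 24 arrays had their best correlation with an array of that number. The replicate number was therefore fitted as a block in an alternative. The main tests did not use it, so they were unpaired. Of the lists, epg-1, atg-11, pink-1, vha-2 and vha-3 had no probe set with 1 symbol and were not analysed here.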

Additional observations from a re-analysis of the deposited data

How the results depend on the processing

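Settings tried were the values as deposited, offsets of 1 and 50, probe sets with a mean level above the median, no intensity trend, the mean of a gene's probe sets, the replicate block and each array left out. Of 51 called values of the 10 genes, 32 were called in all of these, and no called value changed sign. The number of genes called moved from 2 to 1 at 6 h on the values as deposited, from 1 to 0 in fed worms at 48 h with an offset of 50, from 0 to 1 at 3 h among probe sets above the median, and to 1 at 3 h and 2 in fed worms at 48 h with the mean of a gene's probe sets. With the replicate block it was 2 at 3 h, 2 in fed worms at 24 h and 2 at 48 h, and in the mutant set 5 in N2, 2 in jun-1 and 2 in fed kgb-1 against fed N2 worms. The block changed no other count by over 1.5 times, and only added calls. In the time course it rests on 2 numbers that the labels do not tie to a shared day. Same-numbered arrays correlated at 0.329 to 0.701, and 22 of 22 correlated best with their own number. With 2 arrays per group the deviations of both mirror each other, so these 22 are not separate results. Under the block, limma called atg-9 lower at 18 h (adjusted p 0.00987) and 36 h (0.0208). With each array left out, the number ranged for 3 h from 0 to 1, for 6 h from 0 to 2, for 9 h from 3 to 5, for 12 h from 5 to 6, for 18 and 36 h from 6 to 7, for 24 h from 6 to 8, for 48 h from 6 to 7, and was 0 to 0 in fed worms, 2 to 2 in N2 and 0 to 3 in daf-16 worms of the mutant set, and 0 to 0 in its other comparisons. A left-out array leaves a group of the time course with 1 array, whose spread is taken to be that of the other groups, and has fewer samples. Other causes were not tested. Scaling moved the median of all probe sets by at most 0.0927. How far signal over background limits the values of atg-9 and unc-51 was not measured.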
